A study of Mus musculus with 9 samples.

Results

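The SMAD1 library made at 12 h was compared with the input of its own cell line, BV, over the mouse autosomes. SMAD1 was enriched 3-fold or more over that input in 458 windows of 2 kb out of 2240703 windows tested (0.0204%), and overlapping or adjoining windows joined into 233 regions. The strongest 3 regions lay on chromosome 7, and several stretches of the genome held many regions close together. A window at 3-fold or more lay at 18 of 21 imprinted loci, against 0.208% of all stretches of the same 20 kb, but the list of loci was written from memory after the strongest regions had been seen. The series used C57BL/6 embryonic stem cells that were first turned into epiblast-like cells (EpiLC) and then grown as floating aggregates in LIF medium, to which BMP4 (500 ng/ml) and WNT3A (50 ng/ml) were or were not added. The SMAD1 libraries came from cells at 12, 24 and 36 h of a Blimp1-mVenus reporter line (BV) and at 36 h of a Prdm14-mVenus reporter line (PV), T was precipitated from PV and TCF1 from BV, and inputs without antibody are titled BV, BVSC and PV. Which library received which cytokine is not given in the labels, every sample is labelled as EpiLC whatever its hours, and each group is 1 library. Differences between libraries therefore have no replicate check, and intervals below cover counting error only.

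SMAD1 is a transcription factor that carries the bone morphogenetic protein (BMP) signal. The BMP receptors phosphorylate it in the cytoplasm, and with SMAD4 it enters the nucleus and binds GC-rich elements and short SMAD boxes in DNA. BMP4 is the signal that starts germ cell fate in the mouse epiblast, where Id genes and the inhibitory SMADs are among its best known targets. Imprinted genes are read from only the maternal or the paternal copy, and each group of them is governed by a control region that carries DNA methylation on a single parental copy. KRAB zinc finger genes encode DNA-binding repressors and stand in large clusters on several chromosomes, and they are mentioned below only as background on where such clusters lie.

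The sequences below are shown because these 4 genes, all at enriched imprinted loci, are known from other work to start in a region methylated on a single parental copy. They are RefSeq promoters (250 bases before to 50 after a gene's start, build GRCm38.p6, written 5′ to 3′ along the gene), matched by gene symbol, and their GRCm38 coordinates cannot be set against the mm9 coordinates used everywhere else. The table held 24 promoters for 14 of the 18 genes whose loci were called, and the 4 shown were picked after their letters had been read. Capitals mark GGCGCC, a GC-rich element bound by BMP-responsive SMADs, and TGCCGC or its reverse complement GCGGCA, the element that the imprint-keeping factor ZFP57 binds when it is methylated.
Mest, chr6:30737800-30738099, plus strand: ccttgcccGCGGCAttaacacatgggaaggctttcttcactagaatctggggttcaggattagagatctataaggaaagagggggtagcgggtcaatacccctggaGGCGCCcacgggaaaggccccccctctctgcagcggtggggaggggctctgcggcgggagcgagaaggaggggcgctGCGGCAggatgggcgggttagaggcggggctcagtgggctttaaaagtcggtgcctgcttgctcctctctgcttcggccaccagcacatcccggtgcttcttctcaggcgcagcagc
Peg3, chr7:6730370-6730669, minus strand: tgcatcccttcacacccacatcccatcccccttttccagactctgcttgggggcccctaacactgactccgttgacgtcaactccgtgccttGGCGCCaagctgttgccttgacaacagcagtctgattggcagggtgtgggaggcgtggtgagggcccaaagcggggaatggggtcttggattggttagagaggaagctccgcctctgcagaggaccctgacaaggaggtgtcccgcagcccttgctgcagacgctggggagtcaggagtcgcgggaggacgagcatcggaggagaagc
Nnat, chr2:157559828-157560127, plus strand: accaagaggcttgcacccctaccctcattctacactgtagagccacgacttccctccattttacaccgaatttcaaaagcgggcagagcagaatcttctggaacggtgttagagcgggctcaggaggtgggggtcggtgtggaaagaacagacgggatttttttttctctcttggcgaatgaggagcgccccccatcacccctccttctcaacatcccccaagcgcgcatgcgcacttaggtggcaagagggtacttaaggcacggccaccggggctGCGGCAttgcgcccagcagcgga
Plagl1, chr10:13090582-13090881, plus strand: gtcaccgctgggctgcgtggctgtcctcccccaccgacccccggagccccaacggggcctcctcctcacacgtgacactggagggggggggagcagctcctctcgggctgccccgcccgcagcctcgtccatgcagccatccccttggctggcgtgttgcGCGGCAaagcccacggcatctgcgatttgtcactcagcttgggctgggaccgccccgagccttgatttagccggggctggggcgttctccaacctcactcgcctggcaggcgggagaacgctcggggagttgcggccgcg
The Mest promoter shown held GGCGCC 1 time and TGCCGC 2 times counted over both strands. Another Mest promoter, from 30733256, held neither and had 8 CpG dinucleotides. Peg3 held GGCGCC 1 time and no TGCCGC, whereas Nnat and Plagl1 each held TGCCGC 1 time and no GGCGCC. The letters GGCGCC stood in 12.0% and TGCCGC (either strand) in 11.6% of 27025 promoters of the same length, 1 per gene. Of the 24 promoters of called loci, which include more than 1 start for some genes, 6 held GGCGCC and 8 held TGCCGC. Starts that nearly coincide are counted separately, as Mest at 30737800 and 30737803. Others lie far apart, as the Snrpn promoters between 60005150 and 60450427, so not all can lie in an enriched window. These counts therefore cannot be set against the shares over promoters taken 1 per gene. The number of CpG dinucleotides in those shown was 17 in Mest, 13 in Peg3, 17 in Nnat and 26 in Plagl1. The median was 14 over the 24 promoters of called loci and 7 over all promoters taken 1 per gene, and the same limit holds for these medians. These are descriptions of the letters in 300 bases and not sites of binding, because a window of 2 kb does not show where in it the protein sat.

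The SMAD1 library held 18180163 reads and input BV 134657262, so a window of typical input level held 15.1 counts of SMAD1 on average against 112 of input. The other SMAD1 libraries held 23275288 reads (24 h), 14925074 (36 h, BV) and 43354004 (36 h, PV). All values below are enrichments, that is the scaled count of the precipitated library plus 0.5 over the scaled count of its input plus 0.5, where a scaled count of 1 is the average of typical windows. Plain ratios, where given, are scaled counts divided with nothing added and carry exact (Clopper-Pearson) 95% intervals. The tested windows had a median enrichment of 0.983 at 12 h. Windows at 2-fold or more (3598, 0.161%) were outnumbered by windows where input exceeded SMAD1 2-fold or more (9248, 0.413%). At 3-fold the order was the other way round, with 458 windows against 31 (0.00138%). Set against each other in the same windows, the inputs reached 3-fold in at most 12 windows, for input BVSC over input PV (0.000536%), and in 10 for input BV over input PV (0.000446%). The counts for input BVSC over input BV, input PV over input BV and input PV over input BVSC were 1 window each (4.46e-05%). A typical window held 38.3 counts of input BVSC and 34.9 of input PV, so all inputs were deeper than SMAD1. No input was thinned for these comparisons, so they do not show how often an input of SMAD1's depth would reach 3-fold.

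At the strongest region, on chromosome 7 from 52429001 to 52433001, the summit window held 438 SMAD1 counts against 98 input counts, an enrichment of 21.5. The plain ratio there was 33.2 (95% interval 26.6 to 41.7). Enrichment at the same window was 4.58 (24 h), 4.89 (36 h, BV) and 7.54 (36 h, PV), while T stood at 1.06 and TCF1 at 1.07. All 4 SMAD1 libraries were above 3 there, with 12 h the highest, and T and TCF1 were near the level of their inputs. The next, on chromosome 7 from 134753001 to 134758001, had 395 SMAD1 counts against 93 input counts and an enrichment of 20.0, with 9.60 at 36 h in PV. The third, on chromosome 7 from 30935001 to 30940001, differed in that it was as high in PV (17.1) as at 12 h (16.3). Region 4 lay on chromosome 2 from 104657001 to 104661001 with an enrichment of 15.2, and region 5 on chromosome 11 from 96733001 to 96736001 with 14.9.

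Ranks 6 to 8 differed in how they stood in PV. Chromosome 7 from 24888001 to 24893001 held the most SMAD1 counts of any summit, 481 against 190 of input (14.7), and had 8.45 in PV. Chromosome 11 from 121718001 to 121723001 had 386 counts against 148 (14.3) and 14.1 in PV, and chromosome 9 from 22081001 to 22085001 had 352 against 148 (13.1) and 12.0 in PV. The last 2 thus had close values in the 12 h BV library and the 36 h PV library. The BV library of 36 h was lower there, with 6.27 and 3.65. The region on chromosome 11 from 50712001 to 50716001 was alike, with 11.1 at 12 h and 10.7 in PV. It had 4.54 in the BV library of 36 h. No gene is named for these regions, since their positions were not on the list used here.

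The 20 strongest regions ranged from 8.55 to 21.5, and chromosomes 7 and 11 held 4 each. At their summits SMAD1 at 36 h in PV, a library with an input of its own, measured between 4.51 and 17.1 and so passed 3-fold at all 20. SMAD1 at 24 h measured between 2.76 and 8.19 and at 36 h in BV between 2.82 and 6.27, both over the same input BV as the 12 h library. T measured between 0.897 and 2.57 and TCF1 between 0.664 and 2.04, and neither reached 3-fold at any of the 20.

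**Figure D1:**
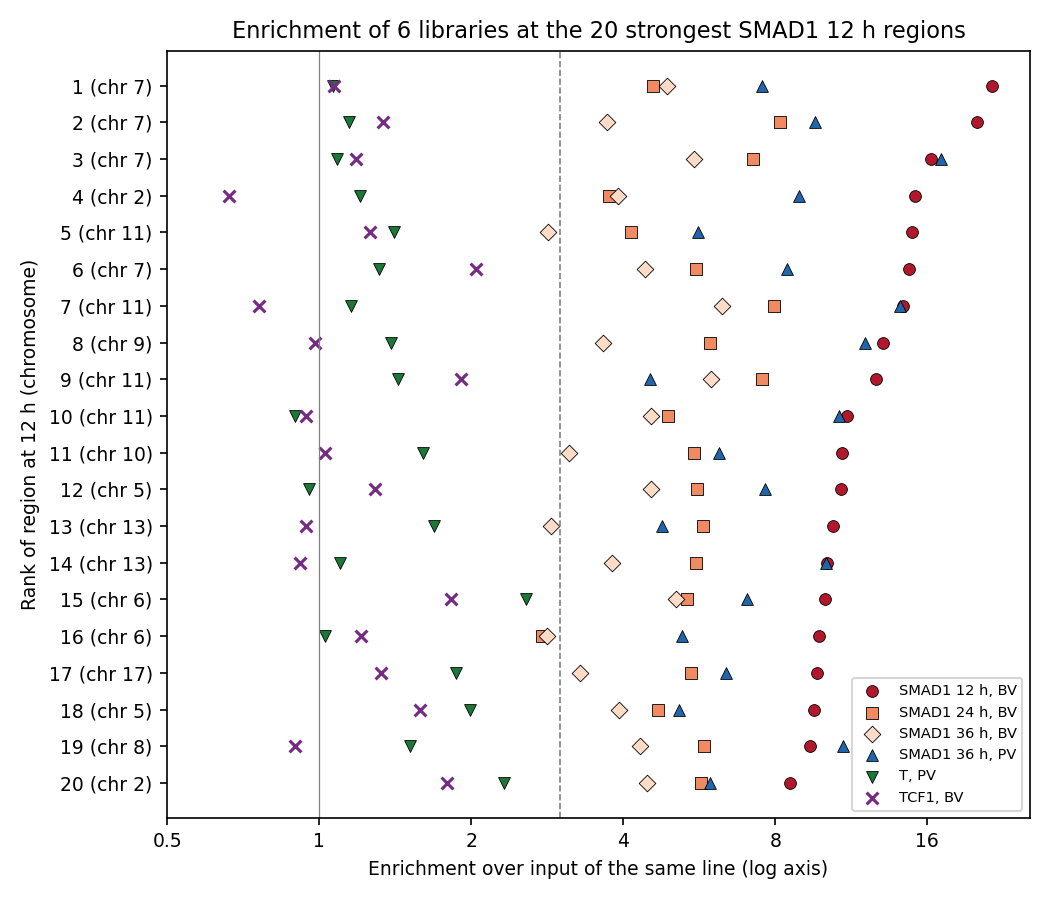
Enrichment over the input of the same line (horizontal log axis) at the summit windows of the 20 strongest SMAD1 regions of 12 h, 1 row per region, for 6 precipitated libraries. The solid line is the level of the input, the dashed line 3-fold. The 12 h values run from 8.55 to 21.5, the 36 h values of PV from 4.51 to 17.1, and the T and TCF1 values stay below 3.

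Over all 233 regions the median enrichment was 3.96, with 116 regions at 4-fold or more, 57 at 6-fold or more and 15 at 10-fold or more. Of all tested windows, 0.0101%, 0.00411% and 0.00103% passed these levels. The number of regions depended on the pseudocount, with 873 at a pseudocount of 0.1 and 141 at a pseudocount of 1. Summits held between 25 and 481 SMAD1 counts, with a median of 81, and between 19 and 296 input counts, with a median of 100. The lower bound of the plain ratio was at least 2 at all 233 summits and at least 3 at 215. These bounds use the same counts that chose the summits, so they follow in part from that choice and are no separate check. Regions of low input were more common among the 233 than among all windows. At 35 summits (15.0%) the scaled input was under 0.5, against 3.91% of the tested windows, and the pseudocount lowers the enrichment most at such windows. The region nearest above the threshold, on chromosome 2 at 163467001, had 69 SMAD1 counts against 133 input counts (3.01), and the nearest below, on chromosome 10 at 76972001, had 65 against 124 (2.99). The 5 regions nearest above ran up to 3.01 and the 5 nearest below ran down to 2.95, and 219 further regions peaked between 2.5 and 3.

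The signal was narrow. Width was 2 kb for 75 regions, 3 kb for 107, 4 kb for 39 and more for the other 12, with a median of 3 kb and a maximum of 7 kb. Because windows of 2 kb step by 1 kb, a region of 3 kb is made of 2 called windows. Over the 232 summits with 10 kb on both sides, median enrichment was 3.98 at the summit, 2.84 and 2.95 in the windows 1 kb to either side, 1.45 and 1.41 at 2 kb, and 1.05 at 10 kb on both sides. The other SMAD1 libraries peaked at the same windows, with medians of 2.29 (24 h), 1.91 (36 h, BV) and 2.90 (36 h, PV). The widest regions were on chromosome 2 from 174120001 to 174127001 and on chromosome 5 from 23209001 to 23216001, with peaks of 8.55 and 4.96.

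**Figure D2:**
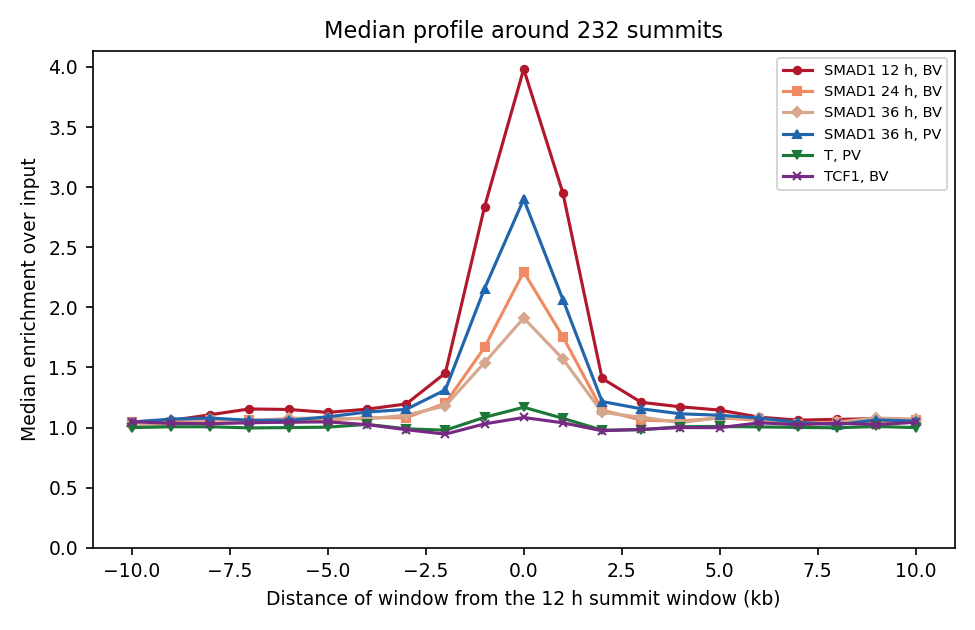
Median enrichment over input (vertical axis, from 0) in windows at a given distance from the summit window (horizontal axis, kb) over 232 regions, 1 line per library. All 4 SMAD1 lines peak at distance 0, at 3.98 for 12 h, whereas T and TCF1 reach 1.17 and 1.08. The height at 12 h is set by the choice of the regions.

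No annotation of mm9 was used here, so genes were named only where their mm9 position is general knowledge, from a list of 21 imprinted and 5 BMP target loci written from memory after the strongest regions had been seen. Each locus is given by its highest tested window within 10 kb of that position, and no distance to a gene was measured. A search within 25 kb was looked at first, and it found the same number of imprinted loci at 3-fold or more and gave 1.54 for Zdbf2. For comparison, 0.208% of all 117884 stretches of 20 kb held a window at 3-fold or more, 2.06% held one at 2-fold or more, and the median of their highest windows was 1.40. Of the 21 imprinted loci, 18 held a window at 3-fold or more, and the median over all 21 was 5.97. The list was not drawn at random and gets no test.

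The highest imprinted locus was that of Zrsr1, a splicing factor gene copied into an intron of Commd1 on chromosome 11. Its window from 22872001 to 22874001 held 286 SMAD1 counts against 116 input counts (12.7, plain ratio 18.3, interval 14.7 to 22.9). Over the libraries it stood at 7.53 (24 h), 5.96 (36 h, BV), 4.51 (36 h, PV), 1.43 for T and 1.91 for TCF1. Mest, a hydrolase-like gene expressed from the paternal copy, had 195 counts against 94 in the window of chromosome 6 from 30687001 (10.0), with 5.35 (24 h), 5.08 (36 h, BV) and 7.02 in PV. The window near Airn, the long RNA that silences the paternal Igf2r, had 199 counts against 102 on chromosome 17 from 12934001 (9.70). All 3 of these loci were above 3 in every SMAD1 library.

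Gnas, which encodes the stimulatory G protein subunit, stood at 8.55 on chromosome 2 from 174121001, within one of the widest regions of the set. Nnat, a small membrane protein gene of neurons, stood at 8.50 on chromosome 2 from 157385001, and Peg3, a paternally expressed zinc finger gene, at 8.25 on chromosome 7 from 6681001. Snrpn, a splicing protein gene of the Prader-Willi domain, had 7.84, and Plagl1, a zinc finger factor, had 6.79. Grb10, an adaptor that restrains growth signalling, and the long RNA gene Peg13 had 6.12 and 6.02. Impact, on chromosome 18, followed with 5.97 and Nap1l5 with 5.42.
The control regions of Rasgrf1, H19 and Meg3 are known to be methylated on the paternal copy. Rasgrf1, an activator of Ras, had 4.72, the growth-restraining long RNA H19 4.65, and the window near the long RNA Meg3 4.36. Kcnq1ot1, a long RNA that silences its neighbours, had 4.55, Inpp5f 4.21 and the retrotransposon-derived Peg10 3.55. Below the threshold lay Mcts2 at 2.57 (69 SMAD1 counts against 165 of input), Slc38a4 at 2.37 (43 against 102) and Zdbf2 at 1.27 (23 against 122). The window used for Zdbf2 started at 63314001 on chromosome 1. A called region from 63245001 to 63248001 (4.65) lay within 100 kb of it but outside both search widths, and is not counted among the loci. The value for Zdbf2 thus depends on the position in the list, which was not checked against an annotation.

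**Figure D3:**
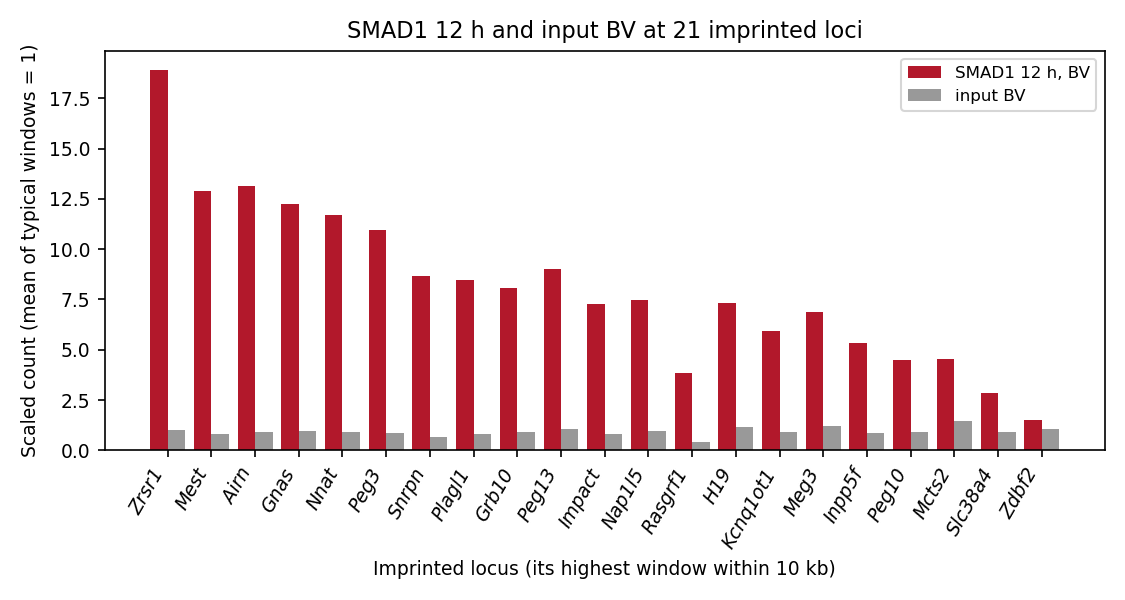
Scaled counts of SMAD1 at 12 h and of input BV (vertical axis, 1 is the mean of typical windows, 1 library each) at the highest window within 10 kb of 21 imprinted loci, ordered by enrichment. The SMAD1 bars run from 18.9 at Zrsr1 to 1.52 at Zdbf2, and the input bars stay between 0.419 at Rasgrf1 and 1.47 at Mcts2.

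The imprinted loci were set beside the other regions in the libraries that did not choose them. The 18 called imprinted loci had a median of 6.07 at 12 h, and the other 215 regions had 3.88, as the choice of regions fixes both at 3 or more. In PV at 36 h, over its own input, the medians were 3.19 at the 18 loci and 2.87 at the other 215, and 10 of 18 and 101 of 215 reached 3-fold, against 0.0116% of all tested windows. At 24 h, over the input BV that the 12 h library also used, the medians were 3.41 and 2.20, and 11 of 18 and 53 of 215 reached 3-fold (0.00754% of all windows). At 36 h in BV, over the same input, the medians were 2.50 and 1.86, and 6 of 18 and 30 of 215 reached 3-fold (0.00330%). The median of the imprinted loci was the higher one in each of these libraries, and no difference between the groups was tested. The groups were not matched for strength at 12 h. At 6-fold or more stood 10 of the 18 loci and 57 of all 233 regions. Over all regions the median in PV was 2.27 for those between 3 and 4 at 12 h. It was 3.13 between 4 and 6 and 5.15 at 6-fold or more. Among the imprinted loci at 6-fold or more, Mest, Airn and Gnas lay above that 5.15 in PV and the others below it. Between 4 and 6 only Impact (3.21) lay above 3.13, and Peg10, between 3 and 4, had 1.79. The higher median of the imprinted loci in PV thus did not hold beside regions of like strength at 12 h. T had a median of 1.44 at the 18 loci and 1.13 at the others, and reached 2-fold at Mest (2.57) and Gnas (2.32) among the imprinted loci and at 9 of the other 215, against 0.428% of all windows. TCF1 had medians of 1.30 and 1.07 and reached 2-fold at none of the 18 loci and at 11 of the other 215 (0.102% of all windows). Antibody background cannot be told apart from binding with 1 antibody to SMAD1 and no control precipitation.

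Among 5 textbook BMP targets, 1 was called. Id2, an inhibitor of basic helix-loop-helix factors, had 75 SMAD1 counts against 101 input counts on chromosome 12 from 25783001 (3.90, plain ratio 5.51, interval 4.03 to 7.51). It was close to that level later too, with 3.34 (24 h), 3.82 (36 h, BV) and 4.27 (36 h, PV). Smad6 and Smad7, which inhibit BMP signalling, had highest windows of 2.72 and 2.01, and Id3 and Id1 had 2.59 and 2.26. Their counts were between 28 and 54, and the lower bounds of their plain ratios were between 1.72 for Smad7 and 3.02 for Smad6. Smad6 had a plain ratio of 5.07 at a scaled input of 0.365, a level at which the pseudocount lowers the enrichment strongly. At 36 h in BV, Id3 had 3.46, so 2 of the 5 reached 3-fold there (0.0033% of all tested windows). Smad6, Smad7 and Id1 had 2.44, 1.82 and 1.48 in that library. In PV, Id3 had 2.90. At 12 h all 5 had a window at 2-fold or more, against 2.06% of all stretches of 20 kb, whose median was 1.40. At 3-fold or more it was 1 of 5, against 0.208% of stretches.

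Regions often had another region near them. Another region was within 100 kb of 55 of the 233 (23.6%), within 10 kb of 13 and within 1 Mb of 116, although there was 1 region per 9617 kb of tested sequence. The 55 regions formed 20 pairs and 5 runs of 3. The shortest gaps were a few windows below 3 between regions, as on chromosome 7 at 52425001 (3.05), which lay 2 kb from the strongest region. The runs of 3 spanned larger distances. On chromosome 5 the members started at 105177001, 105241001 and 105311001 with enrichments of 6.07, 7.19 and 7.84, and measured 2.86, 6.27 and 5.07 in PV. On chromosome 8 they started at 71751001, 71825001 and 71894001 with 9.36, 6.36 and 6.27, and measured 10.9, 5.02 and 5.78 in PV. Both runs thus had similar spacing between members, of 59 to 70 kb, and were enriched in the 12 h library and in PV. The run on chromosome 7 at 13395001, 13427001 and 13434001 had 3.77, 3.87 and 3.41, and that on chromosome 4 at 146706001, 146764001 and 146845001 had 3.16, 3.30 and 3.17. The run on chromosome 2 at 116362001, 116370001 and 116382001, with 3.07, 3.03 and 3.11, was the weakest and had at most 1.79 in PV.

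At a coarser scale, 13 of 504 intervals of 5 Mb held 4 or more regions each. Together they held 61 of the 233 regions (26.2%) on 2.32% of the tested windows. The intervals were picked by their number of regions, so the gap between these shares follows from that choice. These 61 include 20 of the 57 regions at 6-fold or more. Intervals on chromosomes 13 (2 adjoining ones) and 4 held 6 regions each. The adjoining intervals of chromosome 13 held 12 regions between 61961001 and 66700001 with a median of 4.19. They were led by 64269001 to 64273001 with 10.4 and by 66531001 to 66534001 with 10.1, and 9 of the 12 reached 3-fold in PV. For this and the counts below, 111 of all 233 regions (47.6%) and 0.0116% of all tested windows reached 3-fold in PV. The value of 10.1 was 16.4 with a pseudocount of 0.1 and 6.44 over input BVSC. On chromosome 7, adjoining intervals held 9 regions between 46753001 and 52433001 with a median of 5.43, the strongest region of all among them, and 6 of the 9 reached 3-fold in PV. On chromosome 4, 6 regions lay between 145290001 and 147202001 with enrichments of 3.16 to 4.94, and 4 of them reached 3-fold in PV. On chromosome 17, 5 regions lay between 22064001 and 23715001 with 3.22 to 5.27, and 3 reached 3-fold in PV. On chromosome 5, 5 regions lay between 110104001 and 110509001 with 3.82 to 7.69, and between 3.04 and 5.18 in PV. All 5 thus passed 3-fold in the 12 h library and in PV. In the BV library of 36 h they measured between 2.02 and 2.66. On chromosome 17, 4 regions lay between 17109001 and 17404001 with 5.09 to 7.18, and between 3.68 and 5.31 in PV. The run on chromosome 5 at 105177001 had a stronger neighbour at 105010001 with 10.8, and 7.64 in PV. These stretches were singled out after their values were seen. From general knowledge the stretches on chromosomes 13, 4 and 17 (22064001 to 23715001) are rich in KRAB zinc finger genes, but no region was assigned to a gene. T was at most 1.68 in the stretch on chromosome 13, 1.66 in that on chromosome 7, 1.12 in that on chromosome 4 and 0.991 in that on chromosome 17. None of the 18 imprinted loci had another region within 100 kb, so the 55 close neighbours were all among the other 215 regions.

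**Figure D4:**
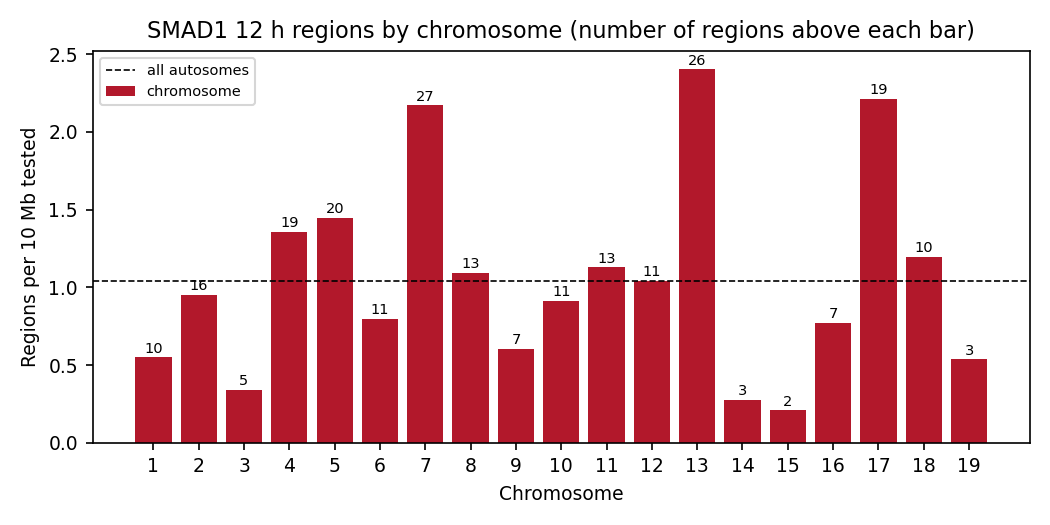
Regions of SMAD1 at 12 h per 10 Mb of tested sequence (vertical axis, from 0) by chromosome, with the number of regions above each bar and the value for all autosomes, 1.04, as a dashed line. Chromosomes 13, 17 and 7 stand at 2.40, 2.21 and 2.17, and chromosome 15 is lowest at 0.209.

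By chromosome the density of regions varied by more than 10 times. Chromosome 13 held 26 regions, or 2.40 per 10 Mb of tested sequence, chromosome 17 held 19 (2.21) and chromosome 7 held 27 (2.17), against 1.04 over all autosomes. Chromosome 15 held 2 (0.209), chromosome 14 held 3 (0.278) and chromosome 3 held 5 (0.339). Chromosome 7 also held 13 of the 57 regions at 6-fold or more and chromosome 11 held 7, whereas chromosomes 3, 14 and 19 held none. Chromosome 7 had 13 regions with another within 100 kb, chromosome 5 had 7 and chromosome 13 only 2, so regions on chromosome 13 were many but mostly more than 100 kb apart.

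The PV library at 36 h shares neither cells nor input with the 12 h comparison, although input PV took part in the choice of windows. At the 233 summits it had a median of 2.90 and reached 3-fold at 111 (47.6%), against 0.0116% of all tested windows, and 2-fold at 177, against 0.0520%. The lower bound of its plain ratio exceeded 1 at 230 of the 233 summits, but how many of all tested windows pass that bound was not counted. The share at 3-fold in PV followed the strength at 12 h. It was 51 of 57 (89.5%) for regions at 6-fold or more at 12 h, 34 of 59 (57.6%) between 4 and 6, and 26 of 117 (22.2%) between 3 and 4. Below 1.5 in PV were 9 regions, all of them between 3 and 4 at 12 h. Of all tested windows, 1.66% stood at 1.5 or more in PV. The strong 12 h regions with the lowest values in PV were that of Grb10 (6.12 at 12 h, 1.86 in PV) and chromosome 6 at 47973001 (7.49 and 2.09). PV was above 12 h at 25 of the 233 regions, among them chromosome 17 at 29297001 with 7.40 at 12 h and 9.03 in PV. Time and line differ together between these 2 libraries and cannot be told apart.

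**Figure D5:**
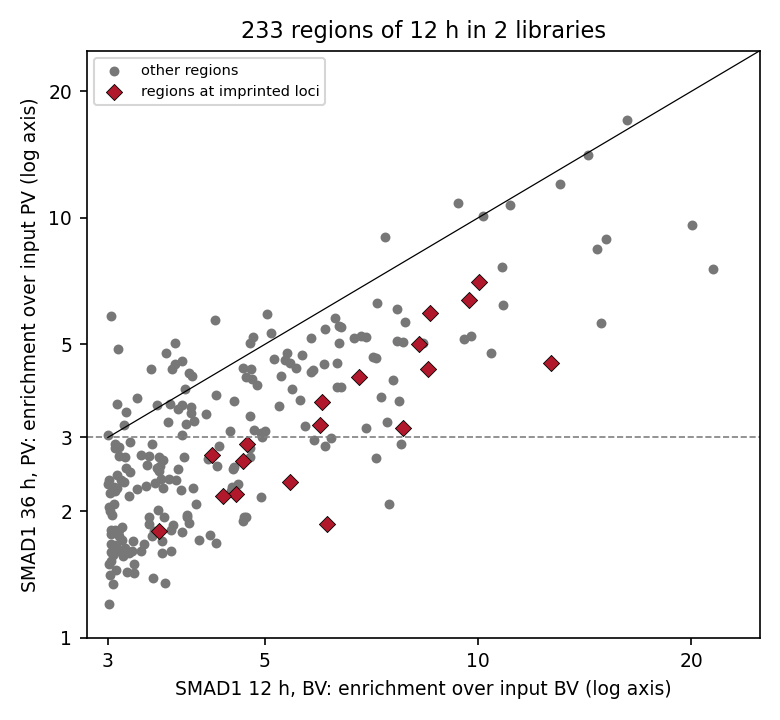
Enrichment of SMAD1 at 12 h in BV over input BV (horizontal log axis) against SMAD1 at 36 h in PV over input PV (vertical log axis) at the summits of 233 regions, with the 18 at imprinted loci as diamonds. The dashed line is 3-fold in PV, reached by 111 regions, and points above the solid diagonal, 25 in number, are higher in PV.

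The later BV libraries share input BV with the 12 h library, so their values are given side by side only. At the 233 summits SMAD1 had a median of 3.96 at 12 h, where the regions were chosen, 2.29 at 24 h and 1.91 at 36 h. It reached 3-fold at 64 regions at 24 h (0.00754% of all tested windows) and at 36 regions at 36 h (0.00330%). It reached 2-fold at 147 regions at 24 h (0.0331%) and at 104 at 36 h (0.0500%). T reached 3-fold at 1 of the 233, on chromosome 9 at 123370001 with 3.24 (0.0996% of all windows), and TCF1 at 1, on chromosome 11 at 120091001 with 4.19 (0.00692%). SMAD1 at 24 h was above 12 h at 5 regions, which were picked out after their values were seen. They lay on chromosome 16 at 57390001, 18 at 68850001, 13 at 97959001, 9 at 123370001 and 2 at 22599001, with 3.30 to 4.76 at 12 h and 4.52 to 5.57 at 24 h. At these 5, T had a median of 2.09, TCF1 2.05, SMAD1 at 36 h in BV 1.21, and the scaled inputs PV and BV themselves had medians of 2.09 and 1.79. What the raised inputs and other antibodies have to do with the SMAD1 value at these 5 was not tested.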

How the data were processed

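Chromatin was fixed with formaldehyde, sonicated, immunoprecipitated and sequenced as single-end reads of 50 bp, per the labels' protocols. The deposited values are raw read counts in 2 kb windows stepping by 1 kb. Alignment with Bowtie 0.12.8 to mm9 is taken from the submitters' processing notes; how reads were filtered is not stated there. Each read falls in 2 windows, so depth was summed over every other window, and coordinates are as deposited.

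Each library was scaled to mean 1 over 1977886 autosomal windows between the 10th and 90th percentile of mean input (3 inputs). Windows with a mean scaled input under 0.25 (230555) or any input over 3 (1095) were dropped, leaving 2240703 of 2472353. Calling used a pseudocount of 0.5 and a threshold of 3, and the summit is the window of highest enrichment. There is 1 library per group, so no test was run. The calling and interval steps were checked on simulated data. The simulated windows did not overlap and varied by counting error around a shared level. They do not show how often unenriched windows of these libraries would be called. Python 3.11.15, numpy 2.4.6, pandas 2.3.3 and scipy 1.17.1 were used.

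The regions named are the 20 strongest (in part as ranges), runs of 3 or more within 100 kb, those nearest the threshold and the listed loci; others named were chosen after their values were seen. The threshold, members, lists, stretches, strength bands, motifs and the 10 kb search were chosen with results of these data known. Promoter sequences and the letters in them come from RefSeq (GRCm38.p6). The planned lookup of genes from an mm9 annotation was replaced by the list of positions from general knowledge.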

Additional observations from a re-analysis of the deposited data

Results flagged for a closer look

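Chromosome X was outside the comparison and held signal all the same. In 122512 tested windows of chromosome X, 2 regions reached 3-fold or more at 12 h. The stronger, from 20606001 to 20610001, had 102 SMAD1 counts against 73 of input BV, an enrichment of 6.30 (plain ratio 10.4, 95% interval 7.61 to 14.2) and 6.16 in PV at 36 h. The other, from 20658001, had 3.32 and 5.18 in PV. Input BVSC over input BV stood at 0.957 and 1.02 at these summits.

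Autosomal windows dropped for high input held 6 regions at 3-fold or more. The strongest lay on chromosome 17 from 39978001 to 39987001, with an enrichment of 8.28 (3102 SMAD1 counts against 2732 of input BV) where scaled input BV was already 24.3. SMAD1 measured 9.78 (24 h), 1.14 (36 h, BV) and 3.60 (36 h, PV) there, T 2.72 and TCF1 2.74. Input PV over input BV was 1.65 and input BVSC over input BV 0.469. Their part in the SMAD1 value was not tested.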

How the results depend on the processing

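The counts depended most on the threshold and the pseudocount. At thresholds of 2, 4 and 6 there were 3598, 227 and 92 windows and 2480, 116 and 57 regions, of which 985, 22 and 8 had another within 100 kb. Regions on chromosome 7 numbered 206 at a threshold of 2 and 13 at 6, and those also at 3-fold in PV 51 at 6. With a pseudocount of 0.1 there were 1361 windows, 873 regions, 247 with another within 100 kb, 82 on chromosome 7 and 186 also at 3-fold in PV. With a pseudocount of 1 there were 273 windows, 141 regions and 30 with a neighbour. Thinning input BV, window by window, to the depth of the SMAD1 library gave 440 regions and 48 on chromosome 7, and taking every other window gave 227 windows, as fewer windows were tested. The cause of the other changes was not tested. Other inputs, scalings and filters, fewer SMAD1 reads, and chromosome X left these counts within 1.5 times the values reported, with 208 to 298 regions. Settings added after seeing the data gave 158 regions with 2 or more windows, 215 with a lower bound of at least 3, and 228 without those higher at 24 h. Searching within 25 kb in place of 10 kb left 18 imprinted loci at 3-fold or more. The 44 regions named here include the 5 nearest below the threshold. Their enrichment moved beyond its counting interval at 23 with a pseudocount of 0.1 and at 21 with a pseudocount of 1. It did so at 7 over input BVSC, 6 over input PV and 4 with input thinned. None fell below 1, a level far from their values. Some called regions fell below 3, as chromosome 2 at 116370001 (2.19 with input thinned) and chromosome 4 at 146706001 (2.40 over input BVSC). Of the 233 summits, 200 were at 3-fold or more over input BVSC, 185 over input PV and 205 over the mean of the inputs. No paired analysis was possible because each group has 1 library. With about 15.1 SMAD1 counts in a typical window, regions near 3-fold are the least certain, and binding below the threshold was not counted.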

Other observations

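Windows dropped for low input formed 23 regions at 3-fold or more, some within the dense stretches. Some of them overlapped regions already called, as on chromosome 13 at 71158001 and chromosome 12 at 19632001. On chromosome 13, 61844001 to 61847001 had 4.35 (40 SMAD1 counts against 25 of input) and 3.45 in PV, and 66770001 to 66773001 had 4.06 (27 against 7) and 3.39 in PV. On chromosome 5, 105178001 to 105180001 had 4.81 (45 against 25) and lay within the first member of the run of 3 described above.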
